A study of Mus musculus with 30 samples.

Results

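The CatSper complex is the principal calcium channel of the sperm tail. Its pore is formed by the proteins of Catsper1, Catsper2, Catsper3 and Catsper4, which are held by auxiliary subunits such as those encoded by Catsperb, Catsperd and Catsperg1, and the calcium that enters through it drives hyperactivated motility. Kcnu1 encodes SLO3, the sperm potassium channel that sets the membrane voltage, Lrrc52 encodes an auxiliary subunit of SLO3, and Slc9c1 encodes the sperm sodium/proton exchanger. Loss of CatSper pore subunits, of SLO3 or of the exchanger makes male mice infertile. These genes are transcribed in developing germ cells, and mature sperm carry remnants of such transcripts.

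The 10 genes above were looked for by name in the RNA profiles of mouse sperm. Of the 10, 8 had a row at 24 h among 15368 mRNAs and lincRNAs and 3 at 46 days among 2457, and the 3 genes with a row at both time points were Catsper2, Catsperg1 and Kcnu1. Over both tables these were 8 of 15467 mRNAs and lincRNAs. Catsperb and Slc9c1 had no row at either time point and were not analysed here.

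Adult C57Bl/6J males, 3 months old, were injected intraperitoneally with 10 μg/kg of tesaglitazar, which activates both PPARα and PPARγ (TESA in the labels, Tesa-inj here) or with vehicle, DMSO in saline (CTRL in the labels, Vehicle-inj here), 2 times per week for 4 weeks. Sperm was obtained by swim-up from the cauda epididymis and treated with a lysis buffer against somatic cells. It was collected 24 h after the last injection, with polyadenylated RNA sequenced in 4 Tesa-inj (libraries 1, 3, 5 and 7) and 4 Vehicle-inj libraries (2, 4, 6 and 8), or 46 days after it, with rRNA-depleted total RNA sequenced in 7 Tesa-inj (libraries 01 to 05, 11 and 12) and 7 Vehicle-inj libraries (06 to 10, 13 and 14). Time point and library type cannot be told apart in this design. The labels do not name the male behind each library, so p-values measure the spread between these samples. All labelled libraries were used, in Tesa-inj at 46 days more than the paper counts as animals after it left out outliers.

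Libraries held 15337589 to 27709990 estimated counts at 24 h and 4538102 to 13513816 at 46 days. At 46 days the 5 most abundant features of the table took 26.0% to 98.2% of a library. They were led by Rn18s-rs5, named after a ribosomal RNA, with 56.9% of counts, and Yam1 with 17.5%. Outside these 5 features, 158820 counts were left in library 02 and 7119414 in library 14. Libraries 02 and 12, both Tesa-inj, stood apart from the others at 46 days, with a median Pearson correlation of log2 CPM (the counts-per-million unit, scaled as below) with the other libraries, across 2262 genes, of 0.722 and 0.599, against 0.863 to 0.912 in the remaining 12. Levels are given below in CPM scaled by TMM, a factor that sets the bulk of the features level between libraries. They are not divided by transcript length, so they compare libraries and not genes.

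Markers were examined to see which cells the libraries held. At 24 h, 14 of 14 genes of sperm and late spermatids had a row, with a summed level of 3384 to 11367 CPM, and the most abundant was Odf1, an outer dense fibre protein of the tail. Of 15 genes of epididymal epithelium 7 had a row, with Lcn5, Lcn6, Lcn8, Lcn9 and Lcn10 among those without. The 7 were also present, with a summed level of 1538 to 3256 CPM, led by Cd52 with a mean of 1644 CPM. So were genes of leukocytes (8 of 9, 79.2 to 169 CPM, led by Lyz2), blood (4 of 5, 53.5 to 270 CPM, led by Hba-a2) and smooth muscle and connective tissue (7 of 7, 40.8 to 174 CPM, led by Col1a1). Of the Sertoli and Leydig list 2 of 6 had a row, led by Clu, which epididymal cells also express, with a summed level of 379 to 1208 CPM that was highest in Tesa-inj library 5. None of these marker genes was called between the groups by edgeR's quasi-likelihood test. At 46 days 13 of 14 sperm genes had a row, led by Prm2, while none of the genes of the other 5 lists had one. This does not show that other cells were absent, since the lists are short and each RNA of this table had more than 10 counts in at least 7 of the 14 libraries. A level in these bulk samples does not tell fewer transcript-bearing sperm from less RNA in each.

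Pore subunits were measured 24 h after the last injection to ask whether they differed soon after the treatment. For Catsper1, the Tesa-inj libraries 1, 3, 5 and 7 had 2.28, 1.04, 3.70 and 0.780 CPM, from 24 to 75 counts, and the Vehicle-inj libraries 2, 4, 6 and 8 had 1.84, 1.70, 1.164 and 1.86 CPM, from 21 to 56 counts. The Vehicle-inj values lay inside the wider Tesa-inj range, and library 5 was the highest. Its log2 fold change was 0.25 (standard error 0.68), but -0.25 without library 5 and -0.55 by limma voom with quality weights. Catsper2 was the most evenly measured pore subunit, with 11.2, 14.4, 13.2 and 14.9 CPM in Tesa-inj and 15.3, 9.06, 9.36 and 12.3 CPM in Vehicle-inj libraries. The groups overlapped, the highest value being that of Vehicle-inj library 2, and the log2 fold change was 0.22 (standard error 0.26), with a 95% confidence interval of the fold difference from 0.777 to 1.75.

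Catsper3 gave 2.22, 0.260, 4.44 and 1.22 CPM in Tesa-inj and 0.836, 0.809, 1.46 and 0.199 CPM in Vehicle-inj libraries. Libraries 1 and 5 of Tesa-inj were above every Vehicle-inj library, while Tesa-inj library 3, with 6 counts, and Vehicle-inj library 8, with 5.7, were near the floor of 3 counts. The log2 fold change of 1.30 was the largest among the channel genes and had a standard error of 0.97, so that the 95% interval ran from -0.86 to 3.46. It was 0.58 without library 5 and 0.96 without library 8. For Catsper4 the values were 5.55, 5.75, 4.39 and 8.31 CPM in Tesa-inj and 5.10, 1.70, 7.96 and 2.52 CPM in Vehicle-inj libraries. A pair of Vehicle-inj libraries, 4 and 8, was below every Tesa-inj library, and the other pair was within the Tesa-inj range. The log2 fold change was 0.47 (standard error 0.51), and it ranged from 0.23 without library 4 to 0.95 without library 6, with 0.82 by limma voom.

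**Figure D1:**
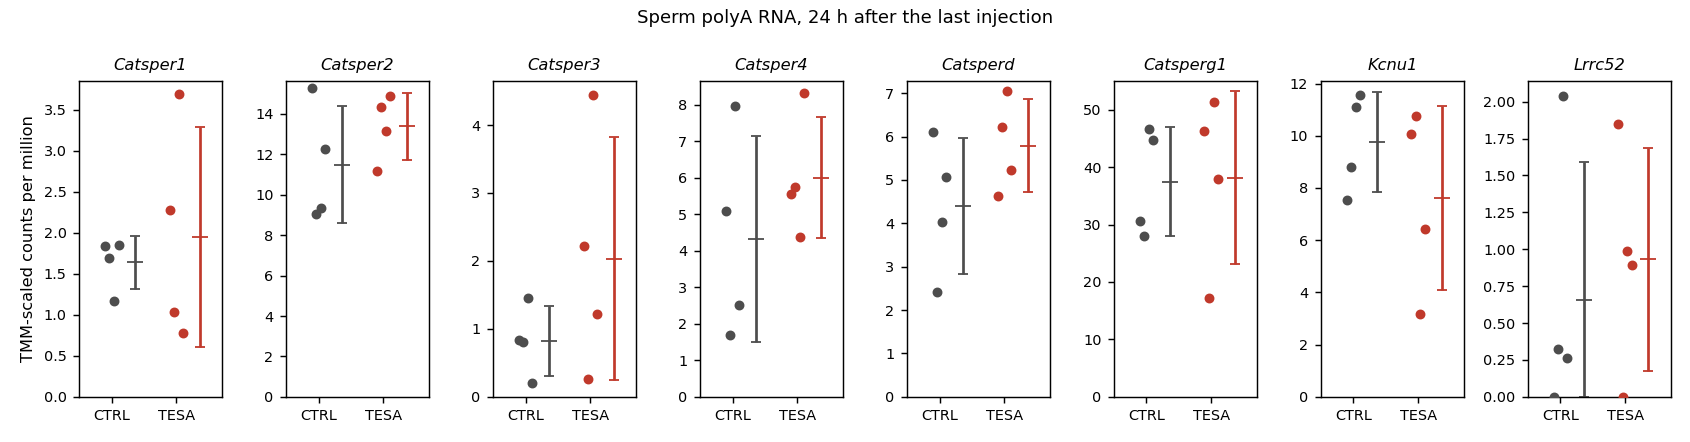
TMM-scaled CPM (vertical axes, linear, one scale per gene) of the 8 channel genes with a row at 24 h, in the 4 Vehicle-inj (CTRL, grey) and 4 Tesa-inj (TESA, red) libraries; points are libraries, and the bars beside them the mean ± SD, cut at 0. The groups overlap for each of the 8 genes, and library 5 is the highest point of Catsper1, Catsper3, Catsperd and Catsperg1 and the lowest of Kcnu1.

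The auxiliary subunit gene Catsperd had 4.63, 6.23, 7.05 and 5.23 CPM in Tesa-inj and 6.10, 2.43, 4.03 and 5.07 CPM in Vehicle-inj libraries. Tesa-inj libraries 3 and 5 were above all Vehicle-inj libraries, and Vehicle-inj libraries 4 and 6 were below all Tesa-inj libraries. Its log2 fold change was 0.39 (standard error 0.39), 0.21 without library 4 and 0.60 without library 2. Catsperg1, which encodes a gamma subunit, had 46.3, 17.3, 51.3 and 37.9 CPM in Tesa-inj and 30.6, 28.0, 46.6 and 44.7 CPM in Vehicle-inj libraries. Both the highest and the lowest library were Tesa-inj, and the log2 fold change was 0.03 (standard error 0.34). Catsperg1 has a close paralog, Catsperg2, on the same chromosome (GRCm38.p6 chr7:29181532-29215589 and chr7:29697217-29727049 in the RefSeq annotation), and short reads shared by such copies are divided between them by estimation, so both values are uncertain. Catsperg1 took 78.2% to 100% of their summed estimated counts at 24 h, and Catsperg2 was at 0 in Tesa-inj library 5 alone. With the counts of the paralogs summed, which was decided on once the values were known, the log2 fold change was -0.04 (standard error 0.30).

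The potassium channel was then examined. Kcnu1 (chr8:25848627-25937943) had 10.1, 10.8, 3.15 and 6.42 CPM in Tesa-inj and 7.52, 8.82, 11.1 and 11.6 CPM in Vehicle-inj libraries at 24 h. Tesa-inj libraries 5 and 7 were below all Vehicle-inj libraries, and libraries 1 and 3 were within the Vehicle-inj range. It was the only channel gene tested with a log2 fold change below 0 at 24 h, at -0.36 (standard error 0.40). It was -0.09 without library 5, -0.58 without library 3 and -0.58 by limma voom with quality weights. Lrrc52, the partner subunit of SLO3, was the least detected of the genes with a row, with 30, 0, 20 and 39 counts in Tesa-inj and 0, 4, 42 and 8 counts in Vehicle-inj libraries. It reached more than 20 counts in 3 libraries, where 4 were needed, and so was not in the main test; it entered only the fit without a count filter. A count of 0 allowed up to 0.251 CPM in library 2 and 0.130 CPM in library 3, which covers counting error only.

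None of the 7 channel genes tested at 24 h was called by edgeR's quasi-likelihood test at an adjusted p of 0.05, where 0% of all 13029 genes tested were called. Each of the 7 had an adjusted p of 1.00, and the smallest unadjusted p was 0.210, that of Catsper3. At an unadjusted p under 0.05, 0 of the 7 and 313 of all genes, or 2.40%, were counted, the latter 128 above 0 and 185 below. This count was 476 without library 3 and, by library totals without TMM, 142, with 116 above 0 and 26 below. The groups did not overlap for 0 of the 7 and for 3.05% of all genes tested. Of the 7 log2 fold changes 6 were above 0, with a median of 0.25, beside a median of -0.0086 over all genes tested. Without library 5, and also by limma voom, 4 were above 0 and 3, those of Catsper1, Catsperg1 and Kcnu1, below. Single libraries entered several of these values, since library 5 held the highest value of 4 of the 8 genes with a row and Vehicle-inj library 4 the lowest value of 3. The summed sperm and late spermatid markers were also lowest in library 4, at 3384 CPM, and were 10416 CPM in library 5, below Vehicle-inj library 8 alone. Library 8, at 11367 CPM, had the lowest value of Catsper3 and the highest of Kcnu1, and library 5 had the lowest of Kcnu1. Whether channel gene levels moved with these markers was not tested. With the other tools 0 genes were called at 24 h, and 305 (edgeR's exact test), 418 (DESeq2) and 919 (limma voom with quality weights) had an unadjusted p under 0.05, none of them among the 7.

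Channel gene levels were next compared 46 days after the last injection, when sperm came from germ cells that had been at early stages during the injections. Kcnu1 was nearly level across the 14 libraries in TMM-scaled CPM. It had a lowest, median and highest level of 15.8, 18.4 and 20.4 CPM in Tesa-inj, and 15.6, 18.2 and 21.5 CPM in Vehicle-inj libraries. The full range was thus 1.38-fold, although the count behind a value ran from 14.6 in library 02 to 1330 in library 14. The spread within groups, 0.147 as the SD of log2 CPM, was below the median of 0.549 over all genes tested, and only 0.486% of the 2262 genes had a smaller one. The log2 fold change was -0.0011 (standard error 0.11), with a 95% confidence interval of the fold difference from 0.849 to 1.18, the narrowest of any channel gene at either time point. Without libraries 02 and 12 it was -0.06 (standard error 0.11). This evenness depends on the scaling: per library total, without TMM, Kcnu1 ran from 1.71 CPM in library 02 to 138 CPM in library 14. Its log2 fold change was then -1.06 (standard error 0.99), that of Catsper2 -1.08 and that of Catsperg1 -0.82, where the median of all genes was -1.03.

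Catsper2 (chr2:121391633-121414598, where the span of Pdia3 overlaps its own) had 1.164, 4.64 and 5.93 CPM as the lowest, median and highest value in Tesa-inj, and 4.09, 4.30 and 4.52 CPM in Vehicle-inj libraries at 46 days. The 7 Vehicle-inj libraries lay close together, and the Tesa-inj libraries spread to both sides of them, with 4 above and 3 below. The lowest value rested on 1 count in library 02 and the highest on 15 counts in library 12, the libraries that stood apart. The log2 fold change was -0.04 (standard error 0.21), and -0.08 (standard error 0.14) without libraries 02 and 12, an alternative added once the values were known.

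In contrast to Kcnu1, Catsperg1 was among the most unevenly measured genes at 46 days, with an SD of log2 CPM within groups of 2.23 that exceeded that of 99.1% of genes tested. In abundance Catsperg1 stood at percentile 18.8 of the genes tested and Kcnu1 at 79.0. Their spreads were not compared at equal abundance. Catsperg1 had 0, 1.98 and 12.2 CPM as the lowest, median and highest value in Tesa-inj, and 3.50, 5.25 and 10.4 CPM in Vehicle-inj libraries. Tesa-inj libraries 02, 04 and 05 were at 0, library 12 was at 1.98 CPM, and libraries 01, 03 and 11 were at 12.2, 6.27 and 10.9 CPM, so 4 Tesa-inj libraries were below every Vehicle-inj library and 2 above every one. The count of 0 allowed up to 3.49 CPM in library 02, 0.637 CPM in library 04 and 0.742 CPM in library 05. These limits cover counting error only, and not the division of reads between Catsperg1 and its paralog.

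Catsperg1 took 0% of the summed estimated counts of both paralogs in libraries 02, 04 and 05, and 100% in library 12. Its share was 61.7% to 68.2% in the other 3 Tesa-inj libraries and 44.6% to 86.9% in Vehicle-inj libraries. The 4 low Tesa-inj libraries were also low when the counts of the paralogs were added. Their summed level was 2.33, 1.88, 2.03 and 2.00 CPM in Tesa-inj libraries 02, 04, 05 and 12, 10.1 to 17.8 CPM in the other 3 Tesa-inj libraries, and 4.05, 9.80 and 15.4 CPM as the lowest, median and highest value in Vehicle-inj libraries. Depth moved with this level: outside the 5 most abundant features the 4 low Tesa-inj libraries had 158820, 621043, 443091 and 569646 counts, and the lowest Vehicle-inj library, 06, had 525562, while each of the other 9 libraries had at least 757651. The part of depth in the low values was not tested. The log2 fold change of Catsperg1 was -0.27 (standard error 0.69), -0.25 (standard error 0.50) for the summed paralogs and -0.05 (standard error 0.64) without libraries 02 and 12. It was -0.73 without library 01 and -0.63 without library 11, and -0.13 without library 04, which shows how far single libraries set it. The tools differed as well, with -1.22 (standard error 0.88) by limma voom with quality weights, so its size is uncertain.

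**Figure D2:**
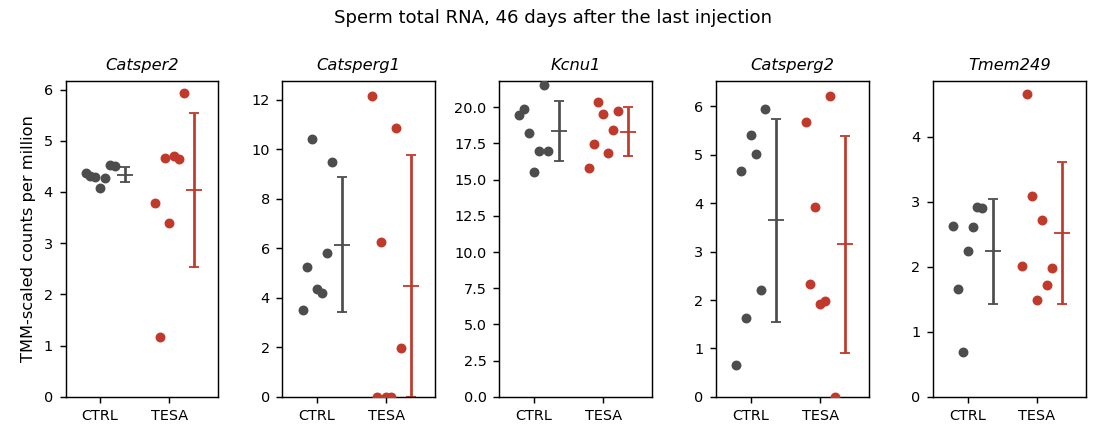
TMM-scaled CPM (vertical axes, linear, one scale per gene) at 46 days of the 3 channel genes with a row and of Catsperg2 and Tmem249, in 7 Vehicle-inj (CTRL, grey) and 7 Tesa-inj (TESA, red) libraries; points are libraries, and the bars beside them the mean ± SD, cut at 0. Kcnu1 lies between 15.6 and 21.5 in every library, while 3 Tesa-inj libraries are at 0 for Catsperg1.

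None of the 3 channel genes tested at 46 days was called by edgeR's quasi-likelihood test, where 0% of all 2262 genes tested were called, and each had an adjusted p of 0.999. At an unadjusted p under 0.05 there were 0 of the 3, and 130 of all genes, or 5.75%, of which 112 were above 0 and 18 below. This count and its direction depended on the libraries and the tool: it was 70 without library 12, with 25 above 0 and 45 below, 134 by limma voom, with 47 and 87, and 37 by library totals without TMM, with 5 and 32. The groups did not overlap for 0 of the 3 and for 0.0442% of all genes tested. The median log2 fold change of the 3 was -0.04, beside 0.03 over all genes. The exact test of edgeR called 12 genes, none of them a channel gene, while DESeq2 and limma voom called 0, and DESeq2 had 112 genes at an unadjusted p under 0.05. Libraries 11 to 14 were treated as a possible batch. With a term for them the log2 fold changes were -0.05 for Catsper2, -0.28 for Catsperg1 and -0.0011 for Kcnu1, and in libraries 01 to 10 alone they were -0.13, -0.29 and 0.0052.

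**Figure D3:**
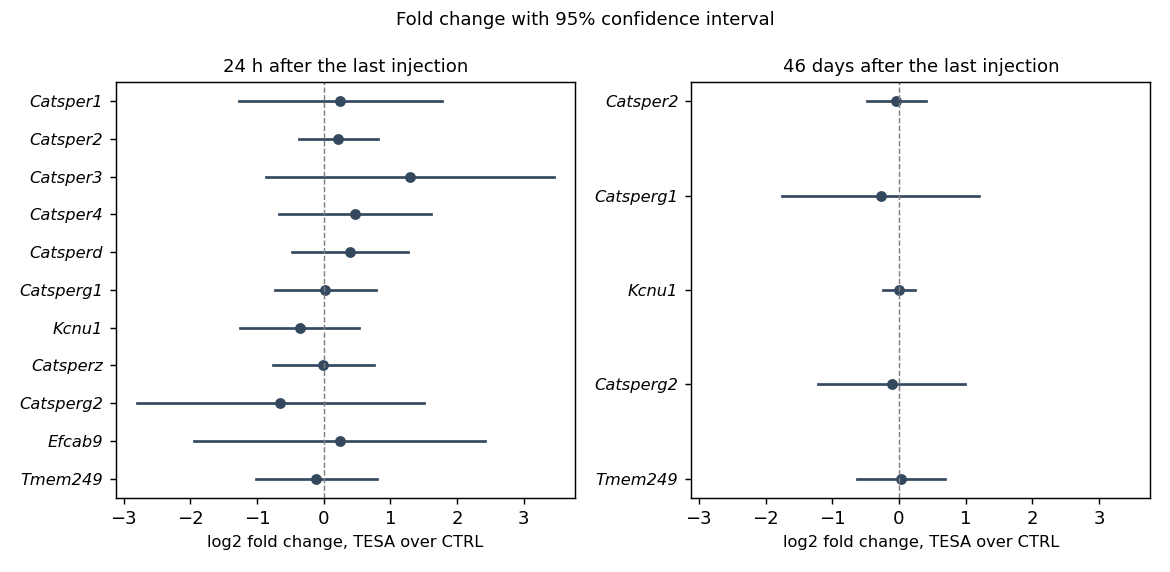
Log2 fold change of Tesa-inj over Vehicle-inj (horizontal axis; points) with its 95% confidence interval (lines) from edgeR's quasi-likelihood fit, for each channel gene and other CatSper subunit gene tested at 24 h (left) and 46 days (right). Each interval crosses 0 (dashed line), and that of Kcnu1 at 46 days, from -0.24 to 0.23, is the narrowest.

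The treatment effect was compared between the time points in one model for the 2141 genes tested at both. The effect at 24 h minus that at 46 days was 0.26 for Catsper2 (standard error 0.32, edgeR adjusted p = 0.835), 0.28 for Catsperg1 (standard error 0.93, edgeR adjusted p = 0.946) and -0.36 for Kcnu1 (standard error 0.33, edgeR adjusted p = 0.752). For Catsper2 and Catsperg1 this was less than its standard error, and for Kcnu1 slightly more. By this test 0% of all genes were called and 208, or 9.72%, had an unadjusted p under 0.05, none of them among the 3, and library totals without TMM gave 12 such genes.

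The ratios of Catsper2 and of Catsperg1 to Kcnu1 differed between the polyadenylated libraries of 24 h and the total RNA libraries of 46 days. Only ratios to Kcnu1 were taken. For each library the estimated count of Catsper2 was divided by that of Kcnu1, a ratio that no scaling of libraries changes but that holds the lengths of both transcripts and so does not rank the genes. It was 0.844 to 4.17 in the 8 polyadenylated libraries of 24 h and 0.0683 to 0.300 in the 14 total RNA libraries of 46 days, with no overlap. Similarly, the ratio of Catsperg1 to Kcnu1 was 1.60 to 16.3 at 24 h and 0 to 0.767 at 46 days. The shift was not particular to these genes, since the ratio of Tmem249, another CatSper subunit gene, did not overlap either. It was 0.334 to 2.64 at 24 h and 0.0381 to 0.273 at 46 days. For Catsperg2, the paralog of Catsperg1, the ratio did overlap, at 0 to 0.704 and 0 to 0.358. Vehicle-inj libraries alone had median ratios of Catsper2 to Kcnu1 of 1.04 at 24 h and 0.232 at 46 days, and Tesa-inj libraries 1.82 and 0.243. Set beside all 2141 genes tested in both tables, which were scaled separately, Kcnu1 had a mean level of 18.3 CPM at 46 days and 8.68 CPM at 24 h. The log2 ratio of these means, 1.08, exceeded that of 94.8% of the genes, whose median was -0.96, while Catsper2 at -1.57 and Catsperg1 at -2.83 exceeded 36.8% and 14.3%. These comparisons were chosen after the values were seen and were not tested.

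Of the other CatSper subunit genes, 10 symbols were looked for, of which Als2cr11 is an older name of C2cd6. At 24 h 5 had a row and 4 were tested, with 1 log2 fold change above 0 and 3 below, and 0 called. Catsperz, the zeta subunit gene, had 11.5, 8.26, 6.55 and 8.93 CPM in Tesa-inj and 7.77, 5.18, 10.9 and 11.5 CPM in Vehicle-inj libraries, and its log2 fold change was -0.0086 (standard error 0.34). The zeta subunit binds EFCAB9, a calcium sensor whose gene had 0.185, 1.21, 3.84 and 2.16 CPM in Tesa-inj and 1.75, 0.162, 1.94 and 2.39 CPM in Vehicle-inj libraries. Efcab9 was thus within a few counts of 0 in library 1 and in library 4, and its log2 fold change of 0.24 had a standard error of 0.98.

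Tmem249 encodes a further CatSper-associated membrane protein and was measured at both times, with 3.72 to 8.33 CPM in Tesa-inj and 3.88 to 9.61 CPM in Vehicle-inj libraries at 24 h, and 1.49 to 4.66 and 0.695 to 2.92 CPM at 46 days. The groups overlapped at each time, with log2 fold changes of -0.11 (standard error 0.41) and 0.03 (standard error 0.31), the latter 0.37 (standard error 0.38) in libraries 01 to 10 alone. Catsperg2 had log2 fold changes of -0.65 (standard error 0.97) at 24 h, where library 5 was at 0, and -0.11 (standard error 0.52) at 46 days. Als2cr11 had more than 20 counts in 3 libraries at 24 h, 0.252 to 3.01 CPM in Tesa-inj and 0.243 to 2.15 CPM in Vehicle-inj libraries, and was not tested. Catspere1, Catspere2, Tmem262 and Slco6c1 had no row at either time.

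Genes of sperm ion transport, pH and voltage control outside the CatSper complex were given by a list of 26. At 24 h 20 had a row and 18 were tested, of which 0 were called and 0 had an unadjusted p under 0.05; 4 had a log2 fold change above 0 and 14 below, with a median of -0.18 beside -0.0086 over all genes. The 4 with the highest mean level were Atp1b3, a beta subunit of the sodium/potassium pump, Car2, a carbonic anhydrase, Atp2b4, the plasma membrane calcium pump that clears calcium from the sperm tail, and Ano1, a calcium-activated chloride channel. Atp1b3 had 122 to 199 CPM in Tesa-inj and 80.5 to 274 in Vehicle-inj libraries, Car2 70.9 to 155 and 46.6 to 135, Atp2b4 44.5 to 57.6 and 37.4 to 71.2, and Ano1 24.7 to 60.9 and 35.5 to 98.6. For all 4 the groups overlapped. At 46 days 6 of the 26 had a row, 0 were called or had an unadjusted p under 0.05, and their median log2 fold change was 0.03.

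Another list held 23 genes of cAMP and calcium signalling in sperm motility. It includes subunits of protein kinase A, which bicarbonate and calcium activate in the tail through cAMP, and also other kinases, phosphatases and anchoring proteins. All 23 were tested at 24 h, with 0 called, 0 at an unadjusted p under 0.05, 13 log2 fold changes above 0 and 10 below, and a median of 0.06. Among those with the highest mean level were Tssk6 and Tssk2, testis-specific kinases, and Akap4, the main anchoring protein of the fibrous sheath. Tssk6 had 153 to 377 CPM in Tesa-inj and 137 to 338 in Vehicle-inj libraries, Tssk2 39.1 to 87.7 and 23.9 to 75.1, and Akap4 25.9 to 45.9 and 34.4 to 64.1. At 46 days 11 of the 23 were tested, 0 were called or had an unadjusted p under 0.05, and their median log2 fold change was 0.11.

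The genes most like the channel genes in their pattern over the 8 libraries of 24 h were sought by the root mean square difference between log2 CPM, centred on its mean, and the average of the 7 centred channel profiles. Among 11752 genes at least as abundant as the lowest channel gene they were Fahd2a (0.0549), Sgta (0.0872), Psmc1 (0.0895), Clta (0.0988) and Ergic3 (0.102), where the median over those genes was 0.662. The average profile was itself shallow, from -0.46 in library 4 to 0.42 in library 5, with a root mean square about 0 of 0.288. A gene with the same level in all 8 libraries would thus be nearer to the average than any channel gene was. The channel genes, each itself part of the average, differed from it by 0.361 for Catsper2 to 1.01 for Catsper3, and 5 of the 7 by less than that median.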

How the data were processed

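RNA was sequenced from 14 sperm libraries at 46 days and 8 at 24 h; serum data of the series were not used. The authors trimmed reads with Trim Galore 1.16, quantified them with Salmon 0.11.2 on GRCm38 transcripts and repeat families, and deposited estimated counts, not normalized. Each row of the 24 h table had more than 5 counts in at least 5 of 8 libraries, and each row of the 46 day table more than 10 in at least 7 of 14, so RNAs below this have no value here. Members and gene lists were chosen with earlier results of these data known.

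Counts were rounded. Features were classed by repeat family name and RefSeq biotype (GRCm38.p6). Of the class of mRNAs and lincRNAs 12447 of 15368 names matched RefSeq at 24 h and 2016 of 2457 at 46 days; unmatched names were kept in it without a biotype. Then mRNAs and lincRNAs with more than 20 counts in at least 4 (24 h) or 6 (46 days) libraries, 80% of the smaller group, were compared in R 4.3.3 by edgeR 4.0.16 (quasi-likelihood, TMM over all features, Benjamini-Hochberg adjustment over the class). Alternatives were edgeR's exact test, DESeq2 1.42.0, limma 3.58.1 voom with quality weights, other scalings and filters, a term for libraries 11 to 14, and each library left out. The fits were tested on simulated data. No library of a group duplicated another.

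Named genes were every channel gene and other CatSper subunit with a row; of both other lists the 4 highest at 24 h and any gene with an unadjusted p under 0.05; the 5 most similar in profile; and the most abundant gene of each marker list; 1 gene that this rule takes is not reported here. Genes were matched by symbol. Log2 CPM had a prior count of 2.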

Additional observations from a re-analysis of the deposited data

Results flagged for a closer look

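Each group of libraries was checked for a value far from the others of its group, for the channel genes and other CatSper subunits, 36 groups in all. In 1 of them the gap to the nearest value was too large a part of the range: Lrrc52 in the Vehicle-inj libraries at 24 h, where library 6 had 2.04 CPM (42 counts) and the next had 0.323 CPM (4 counts), a gap of 0.841 of the whole range. Chance gives such a gap in about 1 of 20 groups. The difference of the treatment effect between 24 h and 46 days passed the threshold for 0 of the genes tested.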

How the results depend on the processing

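No channel gene or other CatSper subunit passed the threshold under any alternative run, and of their recomputed log2 fold changes 138 of 157 kept their sign under other settings and 131 of 158 with a library left out. The count of genes called at 46 days was 12 with edgeR's exact test against 0 in the main test; the cause was not tested. Library totals without TMM moved the median log2 fold change of all genes to -1.03 at 46 days and 0.21 at 24 h, and that of the channel genes to -1.06 at 46 days, -0.03 relative to all genes; Tmem249 turned to -1.41 at 46 days and 0.19 at 24 h, and Catsperz to 0.13 at 24 h. They gave 0.48 for Catsper2, 0.74 for Catsper4 and 0.60 for Catsperd at 24 h. Voom gave -1.25 for Catsperg2 at 24 h.

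Other values changed sign as well, most of them near 0. At 46 days Kcnu1 was 0.0018 with the exact test, 0.015 with DESeq2, 0.0017 with voom, 0.0085 with DESeq2 size factors and 0.0052 in libraries 01 to 10; Catsper2 was 0.0064 with DESeq2; Catsperg2 was 0.18 with voom and 0.074 without libraries 02 and 12; and Tmem249 was -0.0064 with TMM over the tested class and -0.10 without libraries 02 and 12. At 24 h voom gave -0.55 for Catsper1, -0.17 for Catsperg1, -0.31 for Efcab9 and 0.19 for Tmem249; Catsperz was 0.0039 with DESeq2 size factors; and Catsperg1 was -0.038 when summed with Catsperg2. The cause was not tested.

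Leaving out each library in turn, the log2 fold change at 46 days ranged from -0.14 to 0.016 for Catsper2, -0.73 to -0.13 for Catsperg1, -0.37 to 0.057 for Catsperg2, -0.062 to 0.031 for Kcnu1 and -0.15 to 0.12 for Tmem249. At 24 h it ranged from -0.25 to 0.52 for Catsper1, 0.13 to 0.41 for Catsper2, 0.58 to 1.74 for Catsper3, 0.23 to 0.95 for Catsper4, 0.21 to 0.60 for Catsperd, -0.13 to 0.27 for Catsperg1, -0.92 to -0.22 for Catsperg2, -0.58 to -0.09 for Kcnu1, -0.17 to 0.14 for Catsperz, -0.36 to 0.63 for Efcab9 and -0.31 to 0.088 for Tmem249. No paired analysis was possible, because the numbers in the labels are serial, different for every library, and name no pair of Tesa-inj and Vehicle-inj libraries. Levels per kilobase were not run, since the reference used here holds no transcript lengths. Depth limits the 46 day values most in library 02, where 3 counts were 3.49 CPM, against 0.0383 CPM in library 14.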
